A study of Mus musculus with 32 samples.

Results

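H3K9ac and H3K4me3 were compared as peak lists in wild-type J1 cells, a mouse embryonic stem (ES) cell line grown with serum and LIF. Both lists come from chromatin immunoprecipitation followed by sequencing (ChIP-seq), with 1 library per antibody (ab4441 for H3K9ac, ab1012 for H3K4me3, both Abcam). All peaks on chromosomes 1 to 19 were taken, with no choice by measured values: 4024 H3K9ac peaks and 31027 H3K4me3 peaks, or 35051 of the 390088 regions in all lists of the series. The series has 32 samples and also covers Taf5l-KO and Taf6l-KO J1 cells, which are used here only as further libraries of the same 2 marks. Other lists made without a knockout are set beside the marks. These are Myc, Oct4, total RNA polymerase II (RNAP), the polymerase phosphorylated at serine 5 (RNAP-ser5) or serine 2 (RNAP-ser2) of its repeat tail, and TAF6L with a Flag-Biotin tag (TAF6L-FB), pulled down from 2 cell lines. TAF5L-FB lines and cells with the biotin ligase BirA, the control of the tagged pull-downs, were handled in the same way. Whether the knockout cells came from 1 clone or several is not given in the sources used here.

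Trimethylation of lysine 4 of histone H3 (H3K4me3) marks the nucleosomes around the start sites of active genes and, in ES cells, also the starts of many silent CpG-rich genes. Acetylation of lysine 9 (H3K9ac) is laid down by the acetyltransferases GCN5 and PCAF, which work within SAGA-type coactivators and the related ATAC complex, and is best known at starts of transcribed genes. TAF5L and TAF6L are subunits of such SAGA-type complexes. Serine 5 of the polymerase tail is phosphorylated near starts, and serine 2 mostly during elongation further into the gene.

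The H3K9ac list was much the shorter one, and its peaks were narrower and closer to the calling threshold. H3K9ac peaks covered 2.54 Mb, with a median width of 483 bp (range 139 to 4017), while H3K4me3 peaks covered 34.0 Mb with a median width of 794 bp (132 to 14643). The median fold enrichment, the authors' ratio of ChIP pileup to local background, was 4.82 (2.20 to 14.9) for H3K9ac and 5.55 (2.28 to 19.5) for H3K4me3. The median −log10 q was 2.61 for H3K9ac and 5.62 for H3K4me3, and 16.2% of H3K9ac peaks but 53.4% of H3K4me3 peaks reached 5. Both libraries were deep, with 17460064 unique tags for H3K9ac and 15136528 for H3K4me3, and both were called against the same wild-type input of 7771755 unique tags, to which they were scaled down. An H3K4me3 peak "without H3K9ac" therefore means 1 with no H3K9ac peak called at this depth, not 1 without acetylation. With 1 library per antibody there is no replicate and no test. Intervals on shares are exact 95% binomial ones, and those on differences are approximate 95% intervals. All cover counting error only and treat neighbouring peaks as independent. Each list pools many cells, so an overlap does not show that both marks were on the same nucleosome or in the same cell.

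The first question was how far the marks share their sites. Nearly every H3K9ac peak lay in H3K4me3, while few H3K4me3 peaks held H3K9ac. Of the 4024 H3K9ac peaks, 3964 overlapped H3K4me3 by at least 1 bp (98.5%), and 98.2% of all H3K9ac bases were inside H3K4me3. In the other direction 3848 of 31027 H3K4me3 peaks carried H3K9ac (12.4%, interval 12.04 to 12.77%), and 7.34% of H3K4me3 bases were under H3K9ac. There were 7.71 H3K4me3 peaks for each H3K9ac peak. Of the H3K4me3 peaks with H3K9ac, called acetylated domains below, 3731 held 1 H3K9ac peak, 116 held 2 and 1 held 3, and 2 H3K9ac peaks bridged a pair of domains. When both lists were held to −log10 q of 5 or more, 3.75% of H3K4me3 peaks carried H3K9ac.

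Acetylated domains were wide and strong. Their median width was 2117 bp (quartiles 1483 and 2889), against 681 bp (366 and 1267) for H3K4me3 peaks without H3K9ac. Their median H3K4me3 fold enrichment was 10.49 (8.91 and 11.9), against 5.08 (3.93 and 7.30) without H3K9ac. The quartile ranges of the 2 sets did not overlap for either measure.

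By width, H3K4me3 peaks were put into 10 groups of equal number. H3K9ac was found at 0.129% of the narrowest group (4 of 3103 peaks, 132 to 220 bp), at 3.26% of the fifth group, at 17.2% of the eighth, at 29.7% of the ninth and at 52.4% of the widest (interval 50.7 to 54.2%; 2309 to 14643 bp). The share was higher in each group than in the one before it. The lower 5 groups together held 215 of the 3848 acetylated domains (5.59%), and the upper 3 held 80.2%. In fixed classes, 52 of 10042 domains under 500 bp were acetylated (0.518%), 4.34% of those from 500 to under 1000 bp, 41.7% of those from 2000 to under 3000 bp and 58.5% of those from 3000 to under 4000 bp. Of the 115 domains of 6000 bp and more, 83 carried H3K9ac (72.2%, 63.1 to 80.1%).

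A wide domain offers more bases for an overlap, so the same shares were taken in the middle 200 bp of each domain, an alternative chosen after the data were seen. There 8.42% of H3K4me3 peaks had H3K9ac, and the share was again 0.129% in the narrowest group but 29.8% in the widest. In fixed classes it was highest, at 33.1%, for domains from 3000 to under 4000 bp, and was 26.2% from 4000 to under 6000 bp and 20% from 6000 bp on. The difference between the widest and the narrowest group was 52.3 percentage points over whole domains, 29.6 points in the middle 200 bp and 16.8 points with −log10 q of 5 or more.

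By strength the share was near its floor over more of the range. In 10 groups by H3K4me3 fold enrichment the share with H3K9ac was 0.580% in the weakest group, between 0.645% and 2.13% in the next 5, and then 7.06%, 18.5%, 32.6% and 58.9% (57.2 to 60.7%) in the upper 4. The 6 weakest groups ran up to a fold enrichment of 6.54, and the strongest group began at 10.6-fold. The upper 3 groups held 88.7% of all acetylated domains and the lower 5 held 149 (3.87%). In fixed classes the share reached 64.5% at 12- to 14-fold, 78.6% at 14- to 16-fold and 80.0% above 16-fold (36 of 45 domains). The middle 200 bp gave 0.451% in the weakest and 44.1% in the strongest group. With −log10 q of 5 or more the strongest group stood 14.3 points above the weakest, against 58.4 points in the lists as deposited. As deposited the gap was larger by strength (58.4 points, 56.6 to 60.1) than by width (52.3, 50.5 to 54.1). With −log10 q of 5 or more it was 14.3 (12.6 to 16.1) by strength and 16.8 (15.0 to 18.8) by width. With both read from the Taf5l-KO list it was 49.6 (47.6 to 51.6) by strength and 51.4 (49.4 to 53.4) by width. In these latter settings the intervals overlap and do not rank width and strength. The stricter threshold also removes weak H3K4me3 peaks, which narrows the range of strength.

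**Figure D1:**
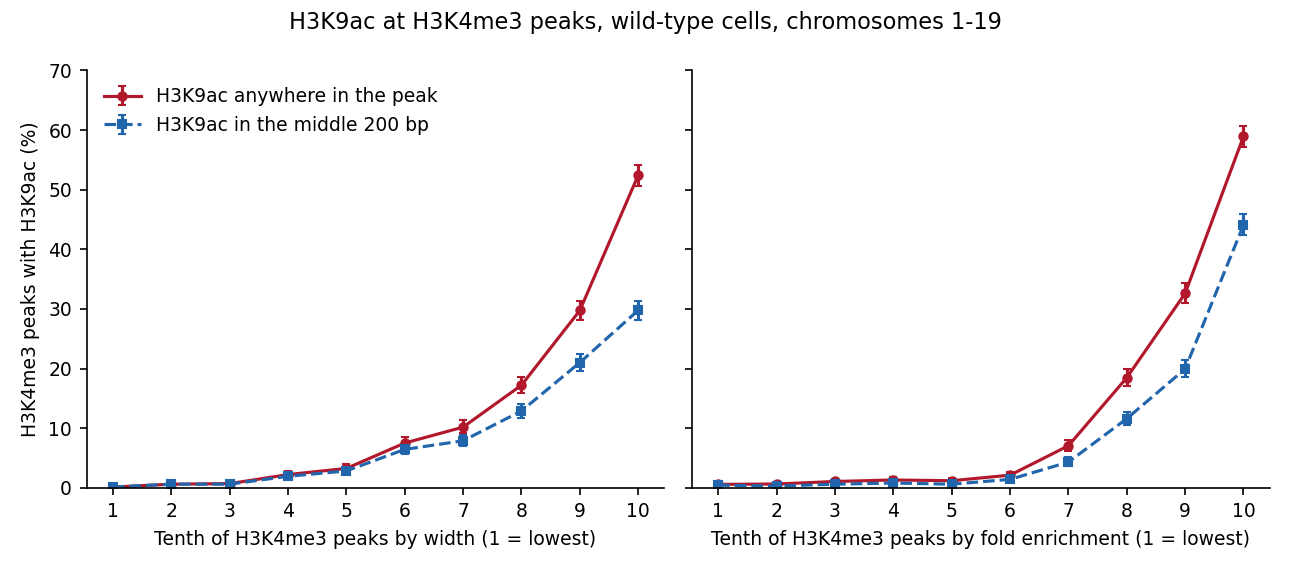
Share of H3K4me3 peaks with H3K9ac (y axis, percent) in 10 groups of equal number by H3K4me3 width (left) and by H3K4me3 fold enrichment (right), low to high. Circles count H3K9ac anywhere in the peak and squares only in its middle 200 bp; bars are exact 95% binomial intervals. The whole-peak share is 0.129% in the narrowest and 52.4% in the widest group, and 0.580% in the weakest and 58.9% in the strongest.

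Width and strength go together among H3K4me3 peaks (Spearman's rho 0.69 across 31027 peaks of 1 library, a description only), so each was also read within 5 groups of equal number of the other. Both were associated with H3K9ac at a given level of the other, mainly in the upper ranges. Domains in both the widest and the strongest of the 5 groups were acetylated in 59.6% of cases (2092 of 3508). Domains that were strongest but narrowest had H3K9ac in 2 of 32 cases (6.25%), and those that were widest but weakest in 2 of 86 (2.33%). At a given strength, the widest of the 5 groups exceeded the narrowest by 17.8 points on average (15.4 to 20.2). That gap was 1.98 points among the weakest domains, with an interval that includes 0 (−0.0884 to 7.80), and 53.4 points among the strongest. At a given width, the strongest exceeded the weakest by 26.6 points on average (23.8 to 29.3), with 5.90 points among the narrowest and 57.3 among the widest. Groups of 5 do not hold the other measure fully equal. Among the strongest domains the median fold enrichment was 9.74 in the narrowest and 10.8 in the widest. Among the widest domains the median width was 2036.5 bp in the weakest and 2354 bp in the strongest.

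These averages depend on the setting. With −log10 q of 5 or more the overall share of H3K4me3 peaks with H3K9ac was itself lower, at 3.75% in place of 12.4%. The gap by width within strength was 9.48 points in the middle 200 bp, 9.86 points in 10 by 10 groups and 6.98 points with −log10 q of 5 or more. The gap by strength within width was 21.4, 32.1 and 7.52 points in the same 3 settings. Groups with fewer than 20 peaks at either extreme were left out, and only 32 peaks were both in the narrowest and in the strongest of 5 groups. In 10 by 10 groups the average by width therefore lacks at least 1 of the strongest groups, and that by strength at least 1 of the narrowest. These 2 averages are not directly comparable with those over 5 groups. With width and strength read from the Taf5l-KO list, the average by width within strength was 23.2 points (21.2 to 25.3). That by strength within width was 21.9 (19.7 to 24.2), so the intervals overlap. In the middle 200 bp of domains in the strongest of the 5 groups, the share with H3K9ac was 6.25%, 18.5%, 22.2%, 23.4% and 39.2% from the narrowest to the widest.

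**Figure D2:**
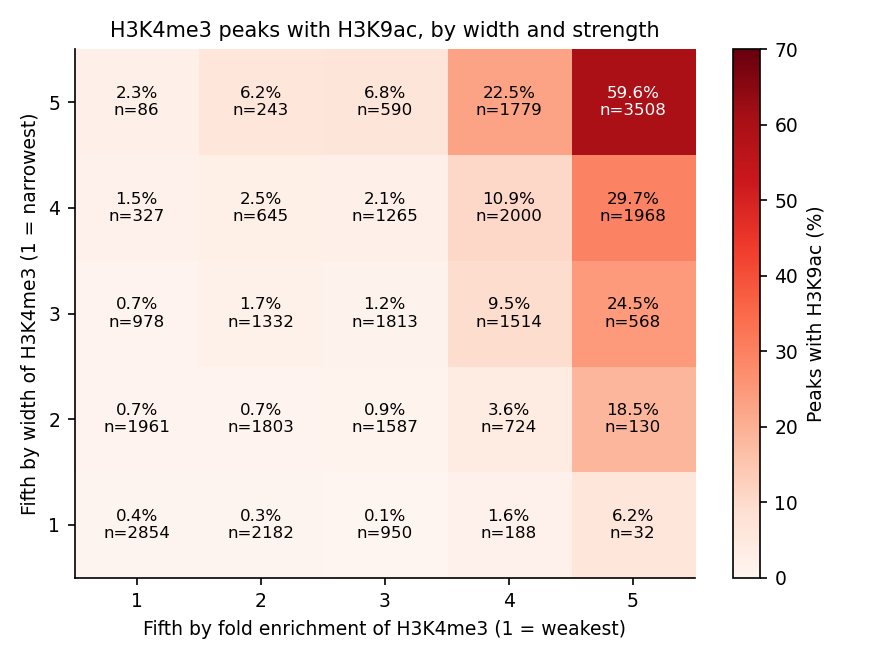
Share of H3K4me3 peaks with H3K9ac (colour and upper figure in each square, percent) in 5 groups of H3K4me3 fold enrichment (x axis) and 5 groups of H3K4me3 width (y axis), with the number of peaks in each square. The square of the widest and strongest peaks stands at 59.6%, the widest but weakest at 2.33% and the narrowest but strongest at 6.25%.

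Where both marks were present, their widths had higher correlations than their fold enrichments. Over the 3962 H3K9ac peaks that overlapped exactly 1 domain, H3K9ac width and domain width had a Pearson correlation of 0.45 and a Spearman correlation of 0.43. For the fold enrichments of the 2 marks these were 0.21 and 0.27. Of these H3K9ac peaks 96.9% lay wholly inside their domain, so domain width sets an upper bound on H3K9ac width. Part of the width correlation is therefore built in, and the fold enrichments have no such bound. All points share the same pair of libraries and the same input, so these are descriptions. Host domains were also put in 5 groups. In the narrowest hosts (up to 1356 bp) the median H3K9ac peak was 307 bp wide with a fold enrichment of 4.52, and in the widest (3223 bp and more) it was 877 bp wide with 5.22. By host fold enrichment, the median H3K9ac fold enrichment was 4.52 in the weakest hosts and 5.24 in the strongest.

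H3K9ac covered a minor part of the domain it lay in. The median cover was 26.4% of an acetylated domain (25.7 to 27.0%). It was 40.8% in domains under 1000 bp and 17.0% in those of 6000 bp and more, while the median number of bases covered was 273 bp and 1369 bp in these classes. In 526 acetylated domains (13.7%) H3K9ac covered at least 50% and in 22 at least 90%. The domain with the widest H3K4me3 among acetylated ones, chr8:28369722-28383978 (mm9, 14257 bp, H3K4me3 fold enrichment 7.24), held 1 H3K9ac peak of 2118 bp at 28370871-28372988. That peak was among the wide ones for H3K9ac, yet covered 14.9% of the domain and sat 15.5% along it from its left end. The next widest acetylated domains had H3K9ac towards their right side. In chr9:114461537-114474443 (12907 bp) 2 H3K9ac peaks were centred 75.3% and 87.2% along the domain, and in chr6:39359390-39371412 (12023 bp) 2 were centred 74.3% and 88.8% along it.

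The opposite case, H3K9ac over nearly the whole domain, was seen in a cluster on chromosome 13. The 3 most covered domains of at least 1000 bp all lay there: chr13:21874476-21875681 (94.9% covered), chr13:21878018-21880196 (93.9%) and chr13:21844718-21847174 (91.5%). Their H3K4me3 fold enrichments, 8.77, 7.93 and 8.70, were below the median of acetylated domains (10.49), and their H3K9ac fold enrichments, 6.01, 5.77 and 5.63, were above the median of H3K9ac peaks. All 3 polymerase lists had a peak at each of them.

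Inside the domain, H3K9ac lay near the centre. On a scale where 0 is the domain centre and 100 its edge, the median H3K9ac centre stood at 24.1 (23.5 to 24.9), or 226.5 bp from the domain centre. Of the 3962 H3K9ac peaks 3292 had their centre in the middle 50% of the domain (83.1%, 81.9 to 84.2%), and 75.9% of their bases inside the domain lay there. Whole containment was the rule, with 3839 H3K9ac peaks (96.9%) inside their domain on both sides. The other 123 reached past an edge by a median of 93 bp, and 9 of them covered the whole domain. H3K9ac centres fell left of the domain centre in 1974 of 3960 off-centre cases (49.8%), left and right being chromosome coordinates, not gene direction. A wide H3K9ac peak in a narrow domain has little room to be off-centre. On a scale where 100 is the farthest offset that keeps the peak inside, the median of the contained peaks was 34.9.

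H3K9ac lay farther from the centre in domains of 4000 bp and more. The median centre stood at 23.5 in domains under 1000 bp, 21.4 from 1000 bp, 21.9 from 2000 bp, 28.1 from 3000 bp, 40.6 from 4000 to under 6000 bp and 53.6 (48.6 to 61.1) from 6000 bp on. The share of H3K9ac centres in the middle 50% was 88.2% (86.2 to 89.9%) from 2000 to under 3000 bp, 63.7% (57.8 to 69.2%) from 4000 to under 6000 bp and 43.7% (33.9 to 53.8%) from 6000 bp on. Measured from the nearer edge, the H3K9ac centre lay a median of 922 bp inside in domains from 2000 to under 3000 bp, 1215 bp from 3000 bp, 1425 bp from 4000 bp and 1637 bp from 6000 bp on. The median distance from edge to centre in these 4 classes was 1206, 1682, 2320 and 3503 bp. The distance of H3K9ac from the nearer edge thus increased less than that of the domain centre.

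**Figure D3:**
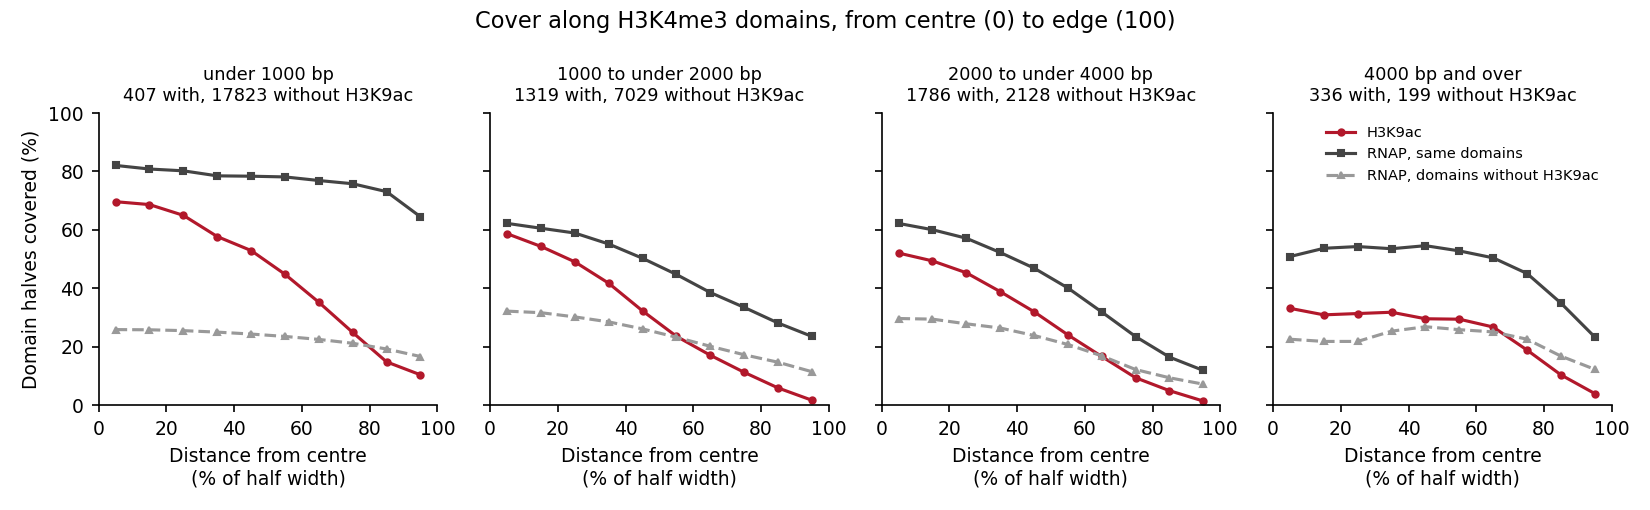
Percent of H3K4me3 domain sides covered (y axis) against distance from the domain centre (0) to its edge (100) in 4 classes of domain width, narrow to wide. Circles show H3K9ac and squares RNAP in acetylated domains; triangles show RNAP in domains without H3K9ac. H3K9ac cover falls off towards the edge in the 3 narrower classes and is nearly flat in domains of 4000 bp and more until the outer part.

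The profile of cover along the domain shows the same change. In acetylated domains from 2000 to under 4000 bp, H3K9ac covered 52.1% of positions next to the centre and 1.46% next to the edge. In domains under 1000 bp these shares were 69.7% and 10.4%. In domains of 4000 bp and more they were 33.2% and 4.02%, with little change over the inner part. RNAP cover in the domains from 2000 to under 4000 bp was 62.2% next to the centre and 11.9% next to the edge where H3K9ac was present, against 29.7% and 7.24% where it was not.

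Domains with more than 1 H3K9ac peak were 117, with a median width of 3879 bp. The 118 gaps between their H3K9ac peaks had a median of 712.5 bp (559 to 4220), so no gap was shorter than 559 bp in a list called with broad linking. RNAP overlapped 108 of these gaps (91.5%), RNAP-ser5 63.6% and Myc 6.78%. Counted over whole acetylated domains, the shares were of similar size, at 95.2% for RNAP, 56.8% for RNAP-ser5 and 8.68% for Myc. Total H3K9ac cover was 28.2% of the domain, against 26.4% in domains with a single H3K9ac peak. The domain with 3 H3K9ac peaks was chr11:20100314-20103775 (3462 bp, H3K4me3 fold enrichment 12.7), where an H3K9ac peak of 788 bp near the middle was flanked by peaks of 142 and 140 bp. TAF6L-FB line 1 had a peak in this domain.

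The polymerase lists were then used to ask on which side of the domain H3K9ac lay. Few tags of the polymerase libraries were unique: 5174150 of 25972174 for RNAP, 3871824 of 31779165 for RNAP-ser5 and 6295522 of 38328861 for RNAP-ser2. The part of these depths in differences between the polymerase lists, here and below, was not tested. RNAP and H3K9ac were mostly on the same side. In 2422 of 3366 domains where both had an off-centre position, their centres fell on the same side of the domain centre (72.0%, 70.4 to 73.5%). It was 82.4% when both were at least 100 bp off centre, an alternative chosen after the data were seen. The signed positions had a Pearson correlation of 0.60 and a Spearman correlation of 0.59 across 3662 domains of the same libraries. For RNAP-ser5 the same-side share was 65.1% (1370 of 2106) and for RNAP-ser2 64.6% (1769 of 2738). RNAP covered 74.1% of the H3K9ac bases inside acetylated domains and 32.6% of the remaining bases of these domains. RNAP-ser5 covered 38.3% and 17.2%, and RNAP-ser2 55.1% and 26.8%. H3K9ac bases lay mostly near the domain centre, where cover by each polymerase list was also higher than next to the edge. These shares of bases were not matched for place in the domain, and the part of place in the contrast was not tested.

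In the widest domains the polymerase forms parted. From 6000 bp on, RNAP was on the side of H3K9ac in 58 of 82 domains (70.7%, 59.7 to 80.3%), close to its share over all domains. RNAP-ser2 was there in 26 of 81 (32.1%, 22.2 to 43.4%) and RNAP-ser5 in 29 of 75 (38.7%, 27.6 to 50.6%). The centre of the RNAP-ser2 bases thus fell more often on the side away from H3K9ac, while for RNAP-ser5 the interval reached to just above 50%. In all domains of 4000 bp and more the shares were 71.7% for RNAP, 58.5% for RNAP-ser5 and 51.3% for RNAP-ser2. The polymerase position is the centre of all bases of that list inside the domain, so a long polymerase stretch that spans both sides counts by its middle, and the share of bases on each side was not measured.

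Acetylated domains were next compared with the other H3K4me3 domains in the lists of polymerase, factors and TAF proteins. Polymerase peaks were more frequent with H3K9ac. Of all H3K4me3 peaks, 47.9% overlapped RNAP, 25.3% RNAP-ser5 and 33.9% RNAP-ser2. RNAP overlapped 3662 of 3848 acetylated domains (95.2%) and 11193 of 27179 without H3K9ac (41.2%). RNAP-ser5 overlapped 56.8% with and 20.9% without H3K9ac, and RNAP-ser2 75.03% and 28.0%. Because acetylated domains are wide and strong, each list was also compared within the 18 width-by-strength groups that held enough domains of both kinds (3821 acetylated domains). There RNAP overlapped 95.3% with and 73.1% without H3K9ac, a difference of 22.1 points (20.7 to 23.5), with the share higher with H3K9ac in 18 of 18 groups. The difference was 32.7 points for RNAP-ser5 and 35.5 points for RNAP-ser2, again in 18 of 18 groups. With −log10 q of 5 or more it was 9.71 points for RNAP, 37.3 (33.5 to 41.0) for RNAP-ser5 and 29.2 (26.3 to 32.2) for RNAP-ser2.

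Seen from the polymerase side, H3K9ac went mainly with called RNAP peaks. Of 14329 H3K4me3 domains in none of the 3 polymerase lists, 150 were acetylated (1.05%). The share was 1.91% with RNAP-ser2 alone, 1.90% with RNAP-ser5 alone and 2.12% with both of these but no RNAP peak. It was 13.4% with RNAP alone, 19.5% with RNAP and RNAP-ser5, 28.0% with RNAP and RNAP-ser2 and 32.6% with all 3 (2035 of 6242). Domains with RNAP were also wider and stronger in H3K4me3 than those without: domains with RNAP alone had a median of 1288 bp and 7.51-fold, and those in no polymerase list 526 bp and 4.32-fold. Where a polymerase peak was present, it was stronger in acetylated domains, with a median RNAP fold enrichment of 6.53 against 4.86 without H3K9ac, 4.10 against 3.79 for RNAP-ser5 and 4.63 against 4.06 for RNAP-ser2. The quartiles overlapped, for RNAP 5.19 to 8.21 with H3K9ac and 4.07 to 6.12 without. These strengths were not matched for domain width or H3K4me3 strength. Polymerase covered more bases but a smaller part of acetylated domains, for RNAP a median of 849 bp against 432 bp and 41.4% against 52.0%. The part covered was 35.0% against 59.1% for RNAP-ser5 and 39.5% against 61.6% for RNAP-ser2.

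Myc, a transcription factor that binds starts of growth genes, was rare, overlapping 1.31% of H3K4me3 peaks in all, and lay mostly in acetylated domains. It overlapped 334 acetylated domains (8.68%, 7.81 to 9.61%) and 73 without H3K9ac (0.269%), so 334 of the 407 H3K4me3 domains with Myc were acetylated. At matched width and strength the shares were 8.74% and 0.896%, a difference of 7.84 points (6.91 to 8.78), higher with H3K9ac in 15 of 18 groups. With −log10 q of 5 or more this difference was 19.4 points (15.9 to 22.9). In the square of the widest and strongest domains, 218 of 234 with Myc were acetylated (93.2%, 89.1 to 96.0%), against 57.2% of those without Myc. The domains with Myc there were wider, with a median of 3290 bp against 2310 bp.

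Oct4, a core pluripotency factor, overlapped 1.03% of H3K4me3 peaks, 92 acetylated ones (2.39%) and 229 others (0.843%). At matched width and strength the difference was 1.49 points (0.9499 to 2.03), with 12 of 18 groups higher, and with −log10 q of 5 or more it was 1.43 points with an interval that includes 0 (−0.0468 to 2.90). TAF6L-FB line 1 overlapped 2.38% of H3K4me3 peaks, 298 with H3K9ac (7.74%) and 440 without (1.62%). Its matched difference was 3.20 points (2.11 to 4.28). TAF6L-FB line 2 overlapped 0.835% of H3K4me3 peaks, 96 with H3K9ac (2.49%) and 163 without (0.600%), and its matched difference was 1.21 points (0.604 to 1.81). For line 2 the difference was 2.14 points (0.481 to 3.801) with −log10 q of 5 or more, and 0.695 points in 10 by 10 groups, with an interval that includes 0 (−0.0284 to 1.42). TAF5L-FB line 1 overlapped 0.171% of H3K4me3 peaks, 30 with and 23 without H3K9ac. TAF5L-FB line 2 and BirA overlapped none of the 31027 (0% each).

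**Figure D4:**
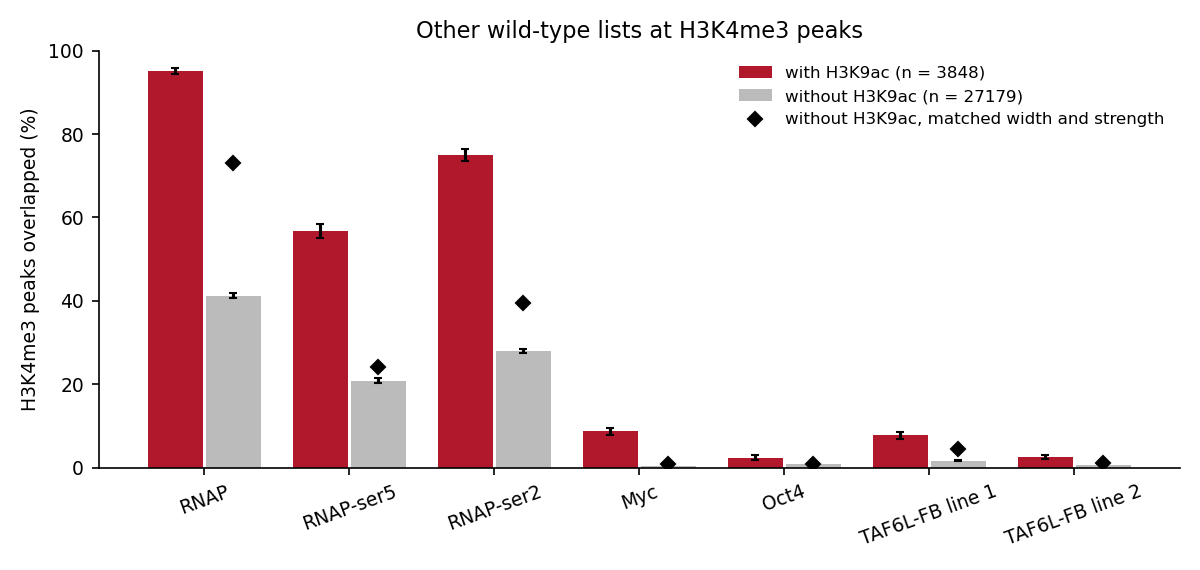
Percent of H3K4me3 peaks overlapped by each of 7 other lists made without a knockout (y axis), for peaks with H3K9ac (left bars) and without it (right bars), with exact 95% binomial intervals. Diamonds give the share without H3K9ac after matching width and strength. RNAP stands at 95.2% with H3K9ac, 41.2% without and 73.1% in matched peaks without; for Myc these are 8.68%, 0.269% and 0.896%.

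Sets of domains at the extremes were then looked at. The first is the square of the widest and strongest domains, with 2092 acetylated ones and 1416 without H3K9ac. RNAP was listed at 96.8% of the acetylated domains, RNAP-ser5 at 55.9%, RNAP-ser2 at 76.3% and Myc at 10.4%. Where H3K9ac was missing, RNAP was listed at 81.3%, RNAP-ser5 at 22.9%, RNAP-ser2 at 42.5% and Myc at 16 domains (1.13%). Acetylated domains were also somewhat larger within the square, with medians of 2570 bp and 11.2-fold against 2140 bp and 10.3-fold.

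The second set is the reverse, H3K9ac at domains under 500 bp, seen in 52 cases with a median H3K4me3 fold enrichment of 4.04, against 4.02 in the 9990 without H3K9ac. The 52 were wider, with a median of 379 bp against 295 bp, and their overlaps were not matched for width. RNAP overlapped 40 of the 52 (76.9%), against 24.2% of the others. RNAP-ser2 overlapped 69.2% against 18.03%, and TAF6L-FB line 1 11.5% against 0.4004%. The third set is the 115 domains of 6000 bp and more. The 83 with H3K9ac had a median H3K4me3 fold enrichment of 9.73 and the 32 without it 7.48. All 83 acetylated ones had RNAP (100%), 90.4% had RNAP-ser5 and 22 had Myc, while 90.6% of the 32 without H3K9ac had RNAP, 59.4% had RNAP-ser5 and 1 had Myc.

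Single regions show the range. The strongest H3K4me3 peak of all, chr11:61667457-61669063 (19.5-fold, 1607 bp), held 2 weak H3K9ac peaks of 4.17- and 4.52-fold. The next acetylated ones were chr1:172814169-172815861 (18.5-fold), with H3K9ac of 5.88-fold over 52.9% of the domain, and chr11:60229677-60232634 (18.1-fold), with H3K9ac of 6.28-fold over 7.84%. All 3 were in the 3 polymerase lists. Of the 3 strongest without H3K9ac, chr11:61770056-61771090 (17.96-fold, 1035 bp) and chr7:121397299-121398369 (16.9-fold, 1071 bp) were in no other wild-type list used here, and chr11:6288723-6290274 (17.6-fold) was in the RNAP, RNAP-ser2 and Oct4 lists. The 3 widest domains without H3K9ac were chr10:80597151-80611793 (14643 bp, the widest of all, 6.68-fold), chr12:87807327-87819482 (12156 bp, 7.35-fold) and chr3:6297326-6307649 (10324 bp, 7.62-fold). Each of these had all 3 polymerase forms. All the H3K4me3 domains named so far were also in the H3K4me3 lists of both knockouts.

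The 5 strongest H3K9ac peaks were between 224 and 605 bp wide, and their host domains ranged from 5.60- to 13.9-fold in H3K4me3. The highest, chr2:164704898-164705296, had a fold enrichment of 14.9 and lay in a domain of 11.8-fold. The second, chr1:72290551-72290789 (12.6-fold, 239 bp), lay in a domain of 965 bp with 5.60-fold H3K4me3, which also held Oct4 and both TAF6L-FB lines. The third, chr10:126748139-126748743 (12.1-fold), shared its domain of 13.9-fold H3K4me3 with Myc. The fourth, chr8:32260435-32260658 (11.5-fold), straddled the left edge of its 7.85-fold domain, at 3.57% of the width. The fifth, chr7:31348367-31348687 (11.4-fold), lay in a domain of 10.8-fold that was in the RNAP list but not in the serine 5 or serine 2 list. The other 4 domains were in all 3 polymerase lists.

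Wide H3K9ac peaks had more polymerase and Myc than narrow ones. Among the 4024 H3K9ac peaks, 89.9% overlapped RNAP, 49.9% RNAP-ser5, 69% RNAP-ser2 and 7.11% Myc. The 92 of at least 2000 bp all lay in H3K4me3 and in RNAP (100%), 42.4% overlapped Myc, and their median H3K9ac fold enrichment was 6.29. The 2106 under 500 bp overlapped RNAP in 84.6% and Myc in 2.18%, with a median of 4.58-fold. A wide peak again offers more bases for an overlap, and these shares were not matched for it.

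H3K9ac without H3K4me3 was rare. It was found at 60 of 4024 H3K9ac peaks (1.49%, 1.14 to 1.91%), spread over 18 chromosomes. With −log10 q of 5 or more, which also removes H3K4me3 peaks, the share was 3.69%. In no group of 10 by H3K9ac fold enrichment did the share with H3K4me3 fall below 97.0%. The 60 were narrower, with a median of 317.5 bp against 485 bp for H3K9ac peaks with H3K4me3, and slightly weaker, with a median fold enrichment of 4.48 against 4.83. A −log10 q of 5 was reached by 4 of them (6.67%), against 647 with H3K4me3 (16.3%).

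Some of the 60 stood beside H3K4me3 and most stood far from it. The median distance to the nearest H3K4me3 peak was 11149 bp (38 to 151883), with 9 within 1000 bp, 18 within 5000 bp and 35 beyond 10000 bp. RNAP overlapped 28 of the 60 (46.7%, 33.7 to 60%), against 90.5% of H3K9ac peaks with H3K4me3. RNAP-ser5 overlapped 12 (20%) against 50.4%, and RNAP-ser2 17 (28.3%) against 69.6%. At least 1 polymerase form was listed at 34 (56.7%, 43.2 to 69.4%) against 92.4%, and at 91.9% of all H3K9ac peaks. Of the 9 peaks within 1000 bp of H3K4me3 8 had RNAP, and of the 35 beyond 10000 bp 11 had it.

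Myc overlapped 4 of the 60 (6.67%, 1.85 to 16.2%), against 7.11% of H3K9ac peaks with H3K4me3. Oct4 overlapped 1 of the 60 and 0.845% of all H3K9ac peaks, TAF6L-FB line 1 overlapped 4 and 4.75%, and TAF6L-FB line 2 overlapped 1 and 1.71%. TAF5L-FB line 1 overlapped 0 of the 60, which allows a share of up to 5.96%, and 0.348% of all H3K9ac peaks. An H3K4me3 peak of at least 1 knockout was present at 11 of the 60 (18.3%), against 98% of all H3K9ac peaks. In 23 of the 60 there was no polymerase, Myc, Oct4 or knockout H3K4me3 peak.

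**Figure D5:**
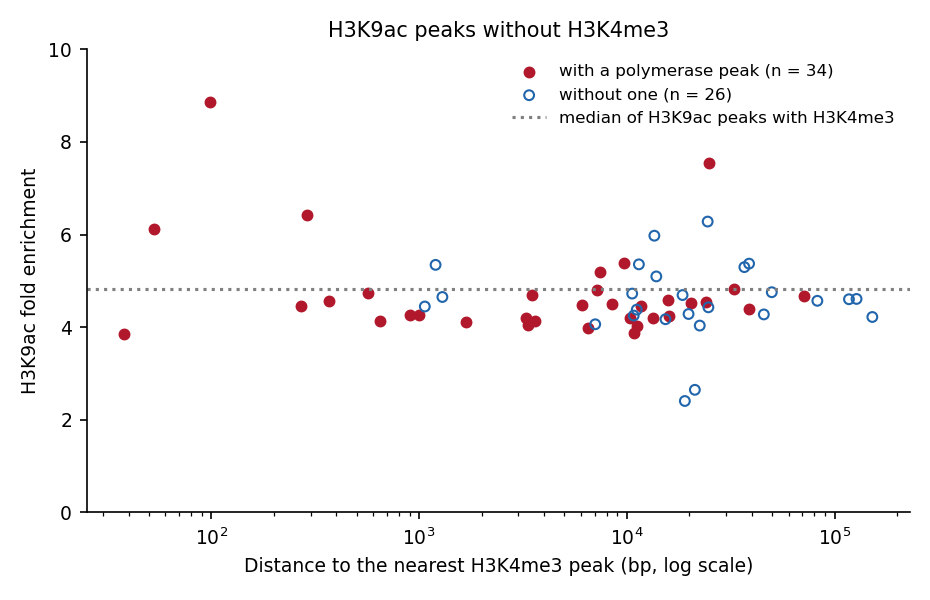
Fold enrichment (y axis) of the 60 H3K9ac peaks without H3K4me3 against the distance to the nearest H3K4me3 peak (x axis, log scale). Filled points overlap at least 1 polymerase list (34) and open points none (26); the dotted line is the median of H3K9ac peaks with H3K4me3. Most points lie beyond 1000 bp and below the line.

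The 5 strongest of these 60 were of different kinds. Next to H3K4me3 stood 3 of them: chr4:116862318-116862524 (8.86-fold, 99 bp from it, all 3 polymerase forms), chr5:114036126-114036291 (6.43-fold, 289 bp, RNAP) and chr11:83084817-83084962 (6.12-fold, 53 bp, all 3 forms). The one on chromosome 4 was also in the H3K9ac lists of both knockouts and overlapped H3K4me3 in Taf6l-KO. The one on chromosome 11 was in the H3K4me3 lists of both knockouts and the H3K9ac list of Taf6l-KO, and the one on chromosome 5 in no knockout list of the 2 marks. The other two were distant. The peak chr1:194571555-194571744 (7.55-fold) lay 24954 bp from H3K4me3, had all 3 polymerase forms and TAF6L-FB line 1, and was likewise in the H3K9ac lists of both knockouts. The peak chr12:106969045-106969217 (6.28-fold) lay 24484 bp away, had no polymerase peak, and overlapped H3K4me3 in Taf6l-KO.

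Acetylated domains were spread over all 19 chromosomes, with a share of acetylated H3K4me3 peaks between 9.76% and 17.0% and a median of 12.2%. The highest was chromosome 11, with 402 of 2368, and the lowest chromosome 15. The width and strength of the H3K4me3 peaks on each chromosome alone gave shares between 10.2% and 15.0%. The nearest H3K4me3 neighbour of an acetylated domain was itself acetylated in 16.5% of cases (15.3 to 17.7%), against 11.7% (11.28 to 12.05%) for domains without H3K9ac.

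The same 2 marks in the knockout cells are further libraries of the same kind, with far fewer H3K9ac peaks. In Taf6l-KO cells 857 of 28093 H3K4me3 peaks carried H3K9ac (3.05%), and in Taf5l-KO cells 107 of 30701 (0.349%), against 12.4% in wild-type cells. H3K9ac again went to wide and strong domains: in Taf6l-KO cells its share was 0.142% in the narrowest of 10 groups and 17.0% in the widest, and 0.0712% in the weakest and 18.3% in the strongest. In Taf6l-KO cells 83.1% of H3K9ac centres lay in the middle 50% of the domain and 3 of 880 H3K9ac peaks had no H3K4me3. In Taf5l-KO cells 75.7% lay in the middle and 3 of 110 had no H3K4me3. At a given strength, the widest of 5 groups in Taf6l-KO cells exceeded the narrowest by 1.21 points, with an interval that includes 0 (−0.0536 to 2.48). At a given width, the strongest exceeded the weakest by 7.78 points (5.81 to 9.75). In Taf5l-KO cells the same gaps were 0.0572 points (−0.959 to 1.07) by width and 0.672 points (−0.417 to 1.76) by strength, and both intervals include 0. Each knockout average covers only 4 of the 5 groups, since those with too few peaks were left out. The wild-type averages cover all 5, and the one by width, 17.8 points, includes 53.4 points among the strongest domains. Knockout and wild-type averages are therefore not directly comparable.

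Wild-type acetylated domains nearly all kept an H3K4me3 peak in the knockout lists. Of all wild-type H3K4me3 peaks 84.2% had one in Taf5l-KO and 80.3% in Taf6l-KO cells. For acetylated domains these shares were 99.0% and 99.1%, against 82.1% and 77.6% without H3K9ac, and at matched width and strength the differences were −0.280 and −0.0100 points. An H3K9ac peak of Taf6l-KO cells overlapped 2.74% of wild-type H3K4me3 peaks, 775 acetylated ones (20.1%) and 75 others (0.276%). An H3K9ac peak of Taf5l-KO cells overlapped 0.345% of them, with 2.68% of acetylated ones and 0.0147% of the others. Of the 5 strongest wild-type H3K9ac peaks, 4 were in the Taf6l-KO H3K9ac list, all but the one on chromosome 10, and none in that of Taf5l-KO. The H3K9ac libraries held 18739413 unique tags in Taf6l-KO and 22968606 in Taf5l-KO cells, against 17460064 in wild-type cells. The inputs held 5923469, 6245652 and 7771755 unique tags, and the estimated H3K9ac fragment lengths were 122, 104 and 139 bp, in the same order. The calling settings were the same, and the part of input and fragment length in the lower counts was not tested.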

How the data were processed

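The submitters' processing notes name the aligner Bowtie2 2.3.2, deepTools 2.5.3 and the genome build mm9. The authors called peaks with MACS2 2.1.1.20160309 against the input of the same genotype, with at most 1 tag kept per position and a q cutoff of 0.05, per the file headers. Broad linking, with a second cutoff of 0.1, was on for both marks and the polymerase lists and off for the others, and the larger of ChIP and input was scaled down to the smaller, per the file headers. For each peak the deposited lists give a pileup height, which is a signal, a fold enrichment, which is a ratio of pileup to local background, and −log10 p and −log10 q. These are the authors' values and were used only to describe, rank or filter peaks within a list.

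Of 26 lists 16 were used, on chromosomes 1 to 19, and peaks that shared at least 1 bp were counted as overlapping. Groups of equal number were cut over all H3K4me3 peaks. Matched differences were averaged over the groups of the 5 by 5 grid with at least 10 peaks on both sides, weighted by peaks with H3K9ac, and differences between extreme groups used groups of at least 20 peaks. Shares carry exact (Clopper-Pearson) 95% binomial intervals and medians exact order-statistic ones. Differences between 2 groups combine the exact bounds of both shares, averages of such differences combine their interval widths in quadrature, and matched differences have normal-approximation 95% intervals. No test was made, since there is 1 library per antibody and genotype. The steps were tested on simulated lists. Python 3.11.15, pandas 2.3.3 and scipy 1.17.1 were used.

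The comparisons, lists and rules were chosen with earlier results of these data known. Regions named are the 3 widest and 3 strongest H3K4me3 peaks with and without H3K9ac, the 3 with the most H3K9ac peaks, the 3 most covered of at least 1000 bp, and the 5 strongest H3K9ac peaks with and without H3K4me3. Gene lists and cell type markers were also set down, but the gene table at hand is of another build than mm9, so peaks are given by position only, the cell type was not checked against marker genes and no sequence is shown. Alternatives were a stricter threshold, other overlap rules, merged peaks, added chromosomes X and Y, and other measures of width and strength.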

Additional observations from a re-analysis of the deposited data

How the results depend on the processing

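No difference between groups changed sign under any alternative. Shares, the same-side share and the median place cannot be negative, so for them no change of sign was possible. The same-side share was not computed with the stricter threshold, merged peaks or added X and Y. Of 59 alternatives for the 9 main results, 30 stayed within the counting interval. When both lists were held to −log10 q of 5 or more, the share of H3K4me3 peaks with H3K9ac was 3.75% in place of 12.4%, the gap between the widest and narrowest of 10 groups 16.8 points in place of 52.3, and that between the strongest and weakest 14.3 points in place of 58.4. The gap by width within strength was 6.98 points in place of 17.8, that by strength within width 7.52 in place of 26.6, the matched RNAP difference 9.71 in place of 22.1, and the share of H3K9ac without H3K4me3 3.69% in place of 1.49%. In the middle 200 bp these shares and gaps were 8.42%, 29.6, 43.6, 9.48 and 21.4, in the same order up to strength within width. In 10 by 10 groups width within strength gave 9.86 points, strength within width 32.1 and the RNAP difference 19.2. The first 2 of these leave out groups with too few peaks, so they are not directly comparable with the averages over 5 groups. With H3K4me3 width and strength read from the Taf5l-KO list the gap by strength was 49.6 points, width within strength 23.2 and strength within width 21.9. With the Taf6l-KO list the gap by width was 54.4, by strength 54.6 and width within strength 15.0. With strength by pileup the gap by strength was 53.3. Merging peaks gave an overall share of 12.8%, and asking for 150 bp of overlap 11.9%. The median place of H3K9ac was 23.4 in domains with 1 H3K9ac peak and 26.2 in domains of at least 2000 bp, in place of 24.1. The same-side share for RNAP was 74.5% in domains of at least 2000 bp and 82.4% with both centres at least 100 bp off centre, in place of 72.0%. Asking for 50% of the H3K9ac peak to be covered put 2.06% of H3K9ac peaks without H3K4me3. The middle 200 bp, the 10 by 10 groups and the 100 bp rule were chosen after seeing the data. Why values moved was not tested. Of 51 alternatives for other results, 38 stayed within the interval and 13 moved. No paired analysis was possible because there is 1 library per antibody and genotype and no result comes from a test. The input depth to which the H3K9ac library was scaled down and the weak q values of its peaks limit what a missing H3K9ac peak can say.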

Other observations

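Chromosomes X and Y were left out of the comparisons. On X, 103 of 1330 H3K4me3 peaks carried H3K9ac (7.74%, exact 95% interval 6.36 to 9.31%), and the width and strength groups of chromosomes 1 to 19 gave 6.38% for the same peaks. RNAP overlapped 63.2% of the H3K4me3 peaks on X, whose median width was 706 bp and median fold enrichment 5.87. On Y, 0 of 13 H3K4me3 peaks carried H3K9ac, which allows a share of up to 24.7%.

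Of the 60 H3K9ac peaks without H3K4me3, a pair lay close together near the start of the chromosome 11 sequence, at chr11:3045345-3045957 and chr11:3047576-3047734 in mm9. They had high pileups, 21.2 and 19.9, but the lowest fold enrichments of the 60, 2.41 and 2.65. Neither was in another list used here. They were singled out after their values were seen.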
